A study of Mus musculus with 16 samples.

Results

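To ask which gene programs outside the cell cycle differ after knockdown of the lncRNA RUS, polyA RNA-seq of neural stem cells (NSC) on day 5 after seeding was analysed, 4 libraries labelled shRNA RUS and 4 labelled shRNA CON, chosen by shRNA and day from the 16 libraries of the series. The NSC were isolated from cortices of C57BL/6 mouse embryos at E15 to E16, with embryos of both sexes pooled, and grown as a monolayer in medium with FGF2. Both groups were transduced 1 day after seeding with a lentivirus that carries puromycin resistance, expressing a scrambled shRNA (shRNA CON) or an shRNA against RUS (shRNA RUS). Differentiation is induced 5 days after seeding by a change of medium, so that day 5 is the end of the culture in growth medium. A single shRNA sequence and a single scrambled sequence stand for the knockdown and the control, and the cultures are mixtures and not clones. The labels number 4 replicates in each group without saying whether they came from separate cultures, so that p-values measure only the spread between these libraries, which may be technical. Values are scaled TPM, the deposited TPM divided by a library factor.

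NSC of the embryonic cortex are radial glia, which line the ventricle and give rise to neurons, then to astrocytes, oligodendrocyte precursors and ependymal cells with motile cilia. In culture with FGF2 they keep dividing and retain many genes that astrocytes also express, among them those for lipid carriers, water and potassium channels and intermediate filaments. Stem cells of the brain depend on lysosomes to clear proteins and receptors, on ribosome production for growth, and on mitochondria when they leave the undivided state. RUS is a lncRNA gene upstream of Slitrk3, listed in mouse as Gm20754.

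The RUS transcript was close to the lower limit of these data and did not follow the labels in every library. Gm20754 stood at 0.216, 0.107, 0.171 and 0.154 scaled TPM in the shRNA CON libraries and 0.0544, 0, 0.128 and 0.318 in those labelled shRNA RUS. The group means were 0.162 ± 0.0448 and 0.125 ± 0.139 scaled TPM (SD, n = 4), so that the libraries labelled shRNA RUS held 77.1% of the control level (exact permutation test, two-sided, p = 0.657, where 0.0286 is the smallest p that 4 against 4 libraries allow). The library labelled shRNA RUS replicate 4 had the highest level of all 8, and without it the share was 37.5% (exact permutation p = 0.114). A transcript at this level is a weak check of the labels in either direction. The groups are therefore named by their labels below, and each direction rests on those labels. Counts over whole lists are given with and without replicate 4, while many counts for parts of a list include it. On the first principal component, with 28.6% of the variance, all 4 libraries labelled shRNA RUS lay apart from the controls, replicate 4 nearest to them. The library factors ran from 0.919 to 1.11 and were lower in the libraries labelled shRNA RUS, where 25612 to 26707 genes had a TPM above 0 against 26831 to 27697 in the controls. All 11 NSC markers were detected in every library, from Hes5 at a mean of 7.34 scaled TPM to Vim at 10445. Of the defining markers of endothelial cells, Cdh5, Cldn5, Emcn, Tie1 and Erg lay below the limit for a test, as did Lum among those of fibroblasts and Neurog1 and Neurod2 among those of neuronal precursors.

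Relative to shRNA CON, 3349 of 22581 genes were called higher in the libraries labelled shRNA RUS (14.8%) and 4034 lower (17.9%; limma, adjusted p under 0.05), with a median log2 fold change of -0.061 over all tested. Below, a gene rose or fell where it was called. For 3194 genes (14.1%) all 4 libraries labelled shRNA RUS lay above all 4 controls, and for 4218 (18.7%) all lay below. Without shRNA RUS replicate 4, 17.4% of 22583 genes rose and 20.3% fell. The balance between the directions depends on the scaling between libraries. Of the called genes, 45.4% were higher after the scaling used here, 22.7% with TPM as deposited (median of all genes -0.21), 33.2% after scaling to the 75th percentile (median -0.13) and 50.1% after quantile normalization (median 0.0078).

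The 48 gene lists spread widely around these shares, as the plot of called members shows. Lysosome and autophagy genes, ribosomal proteins and the nuclear genes of oxidative phosphorylation had the largest shares of members that rose. Proneural genes, motile cilia genes, the nuclear envelope and pore, and ribosome biogenesis had large shares that fell. The level of a gene moved with its change. Genes with a mean of at least 300 scaled TPM had a median log2 fold change of 0.28, and 52.2% of them rose. Among genes of 100 to 300 scaled TPM the median was 0.16 and 42.9% rose, against a median of -0.13 and 11.3% among genes of 3 to 10, of which 30.7% fell. With TPM as deposited none of the 48 lists had more members that rose or fewer that fell than after the scaling used here. Several lists are set beside genes of their own level as well as beside all genes. Among genes of at least 1 scaled TPM the change also moved with transcript length, from a median of 0.15 below 500 bases to -0.19 above 5000 bases. The part of level and length in the lists was not tested.

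**Figure D1:**
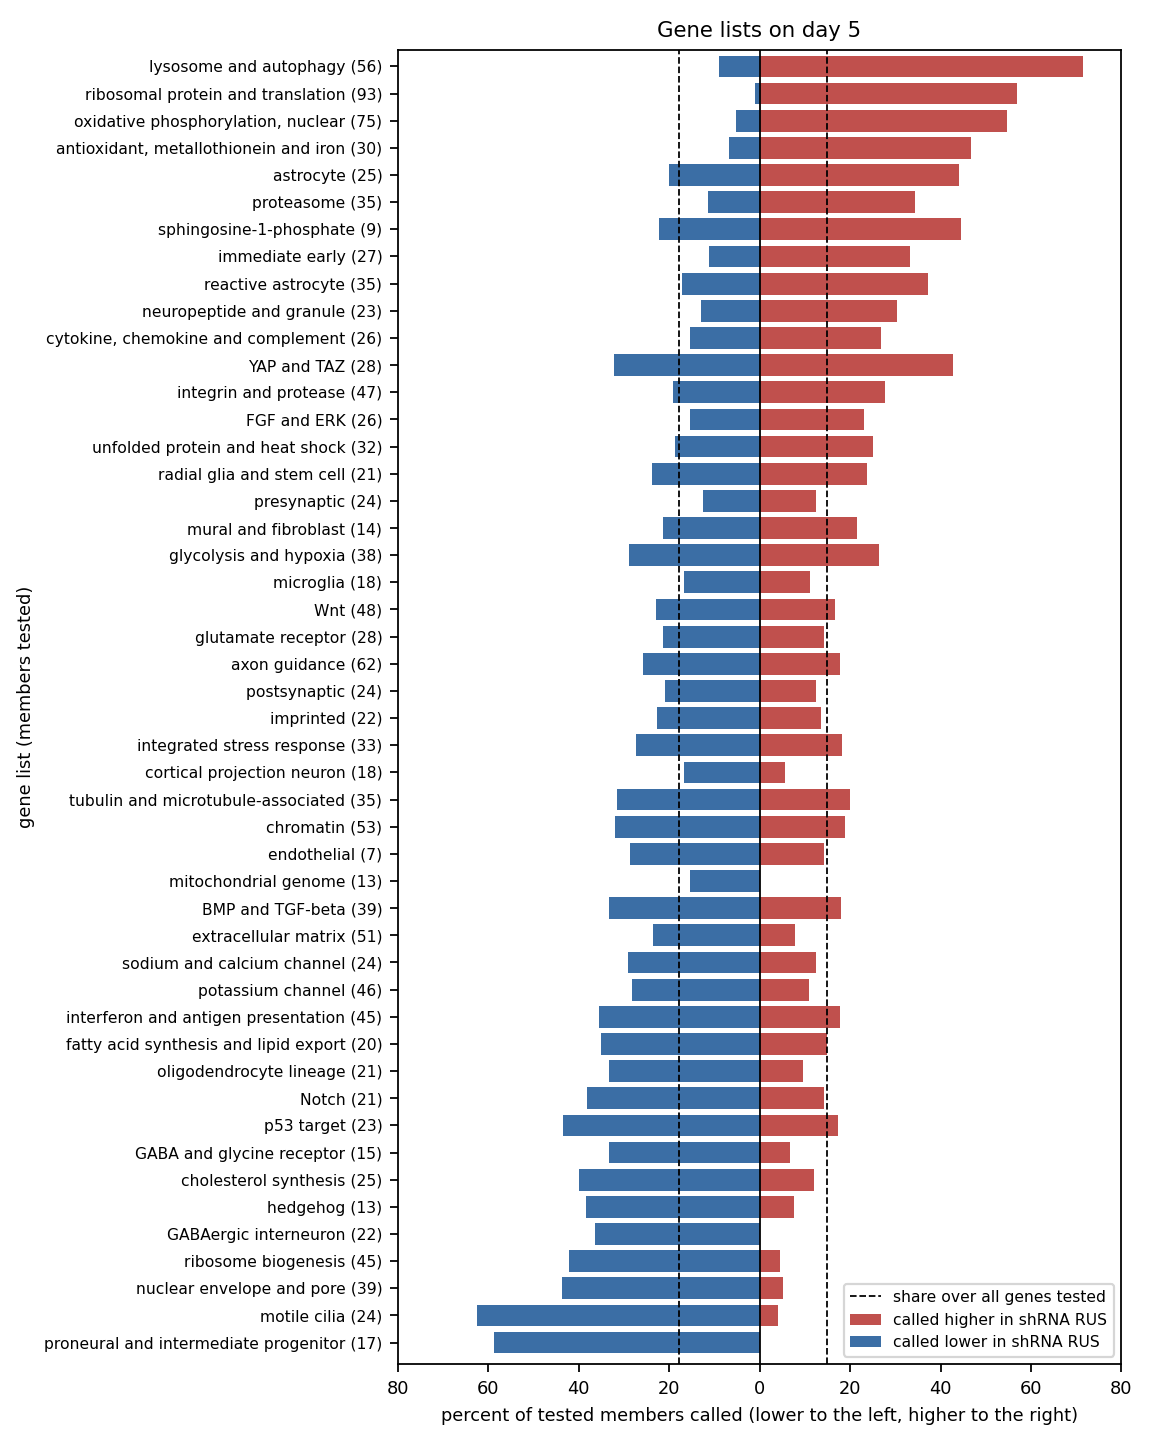
Percent of the tested members of each of 48 gene lists that were called higher (red, to the right) or lower (blue, to the left) in the 4 libraries labelled shRNA RUS than in the 4 shRNA CON libraries on day 5, with the number of tested members in brackets. The dashed lines mark the shares over all genes tested, 14.8% higher and 17.9% lower, and lysosome and autophagy genes stand at the top with 40 of 56 higher.

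**Figure D2:**
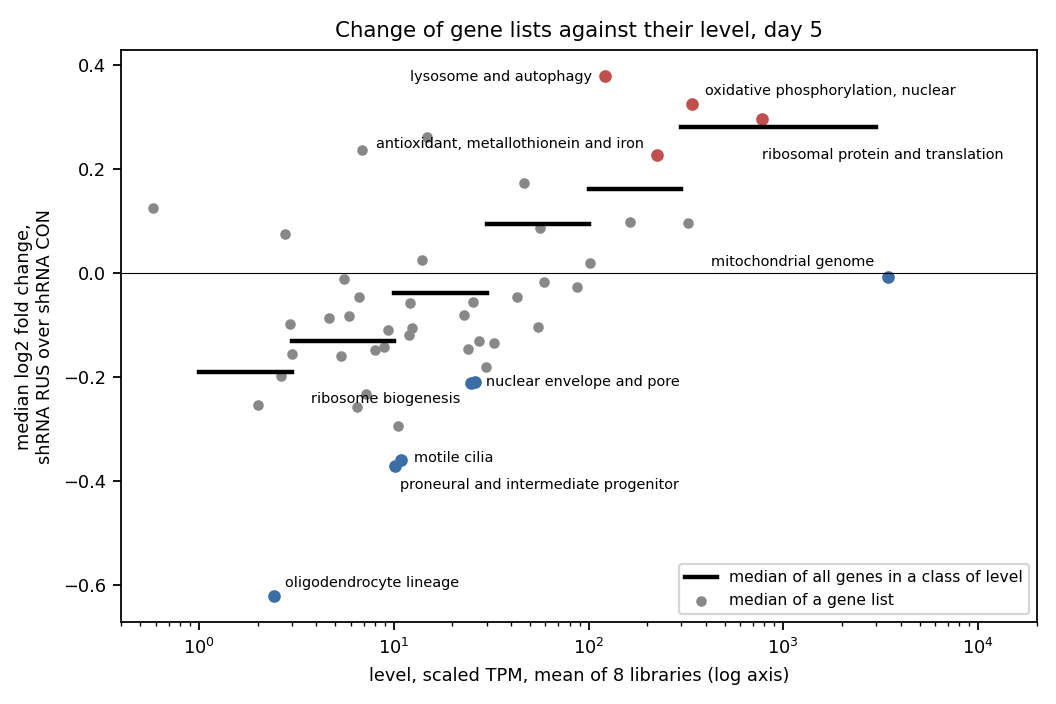
Median log2 fold change of each gene list (points) against the median level of its members in scaled TPM (mean of 8 libraries, log axis), with black lines for the median of all genes in classes of level. The line rises from -0.19 at 1 to 3 scaled TPM to 0.28 at 300 and above. Lysosome and autophagy genes lie above the line of their class, and nuclear envelope, ribosome biogenesis, motile cilia, proneural and oligodendrocyte genes lie below theirs.

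The largest share of members that rose was that of the lysosome and autophagy list, 40 of 56, while 5 fell. Lysosomes are acidic compartments in which cathepsins and glycosidases break down proteins, glycans and lipids, and autophagy delivers cytoplasm to them. The factor TFEB, which drives many of these genes, binds a site in their promoters known as the CLEAR element. The 3 promoters below hold its core and belong to genes that rose: Atp6v0b, a subunit of the proton pump, Ctsa, a carboxypeptidase that protects other lysosomal enzymes, and Lamp1, the main protein of the lysosomal membrane. Each runs 5′ to 3′ from 250 bases before to 50 bases after the RefSeq start in GRCm38.p6, at chr4:117887280-117887579 (minus strand), chr2:164833523-164833822 (plus strand) and chr8:13158911-13159210 (plus strand), with every match to TCACGTG on either strand in capitals and overlapping matches joined.
Atp6v0b: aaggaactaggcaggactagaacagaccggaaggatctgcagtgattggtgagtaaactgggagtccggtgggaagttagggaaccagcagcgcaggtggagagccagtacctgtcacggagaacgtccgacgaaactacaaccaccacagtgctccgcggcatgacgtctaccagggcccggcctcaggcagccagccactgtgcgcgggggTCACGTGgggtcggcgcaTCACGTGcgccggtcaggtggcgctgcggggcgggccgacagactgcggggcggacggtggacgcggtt
Ctsa: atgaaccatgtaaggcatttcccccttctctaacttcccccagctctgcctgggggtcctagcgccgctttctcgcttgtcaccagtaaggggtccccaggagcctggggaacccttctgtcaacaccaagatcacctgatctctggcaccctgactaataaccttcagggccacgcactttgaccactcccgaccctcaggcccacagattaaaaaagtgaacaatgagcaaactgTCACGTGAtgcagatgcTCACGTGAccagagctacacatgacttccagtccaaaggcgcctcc
Lamp1: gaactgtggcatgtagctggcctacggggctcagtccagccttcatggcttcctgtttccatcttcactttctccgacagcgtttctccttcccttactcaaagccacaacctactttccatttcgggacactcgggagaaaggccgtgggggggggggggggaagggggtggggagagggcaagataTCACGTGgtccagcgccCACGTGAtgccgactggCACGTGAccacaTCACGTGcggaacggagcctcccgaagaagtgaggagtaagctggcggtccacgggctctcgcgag

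These windows held 2, 2 and 4 matches. Of the 46 tested lysosome and autophagy genes with a RefSeq promoter, 13 held TCACGTG (28.3%), against 833 of 13439 tested genes with a promoter (6.20%) and 1237 of all 32851 promoters (3.77%). The match did not separate the members by call: it was present in 9 of 33 members that rose (27.3%), 1 of 3 that fell and 3 of 10 that were not called. A match is a description of the letters and not a bound site.

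Tfeb, the factor itself, stood at 12.1, 11.9, 12.4 and 12.6 scaled TPM in the shRNA CON libraries and 20.8, 23.7, 24.8 and 18.0 in those labelled shRNA RUS (log2 fold change 0.82, SE 0.097, adjusted p = 0.000293). All 4 libraries labelled shRNA RUS lay above the controls, replicate 4 lowest among them. Grn, whose product progranulin is carried into lysosomes, stood at 150.0, 151, 159 and 165 scaled TPM in the shRNA CON libraries and 212, 277, 308 and 257 in those labelled shRNA RUS (log2 fold change 0.74, SE 0.10, adjusted p = 0.000646), again without overlap. Npc1 and Npc2, which pass cholesterol out of the lysosome, rose together. Npc1 went from 50.6 ± 2.00 to 78.5 ± 8.06 scaled TPM (SD, n = 4; log2 fold change 0.63) and Npc2 from 112 ± 3.88 to 175 ± 13.8 scaled TPM (log2 fold change 0.64). Of the members described here, Tfeb, Grn, Atp6v1a and Atp6ap2 were taken by size of change among called genes, and the others were chosen after their values were seen.

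Enzymes and membrane proteins formed the largest group of the list, and 22 of 28 rose while 1 fell, with a median log2 fold change of 0.48. The abundant cathepsins Ctsb and Ctsd went from 1178 ± 34.3 to 1749 ± 72.7 scaled TPM and from 1506 ± 48.1 to 2080.1 ± 130.4 scaled TPM (SD, n = 4; log2 fold changes 0.57 and 0.46). Ctsl rose by 0.61 and Ctsf by 0.51 on the log2 scale, whereas Ctsz, at 138 ± 9.88 and 135 ± 14.7 scaled TPM, was not called. Glb1, the lysosomal beta-galactosidase, rose by 0.32 on the same scale. Lamp1 stood at 670.3, 725, 709 and 714 scaled TPM in the shRNA CON libraries and 1036, 1040.3, 1034 and 971 in those labelled shRNA RUS (log2 fold change 0.53, SE 0.051, adjusted p = 9.61e-05), without overlap, and its relative Lamp2 was not called (log2 fold change 0.17).

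The proton pump that acidifies the lysosome was mixed, with 7 of 12 subunits or partners higher and 2 lower. The membrane subunit Atp6v0b stood at 209, 199, 208 and 209.7 scaled TPM in the shRNA CON libraries and 323, 336, 342 and 268 in those labelled shRNA RUS (log2 fold change 0.61, SE 0.077, adjusted p = 0.000398). Its groups were far apart, with replicate 4 the lowest of its label. The catalytic subunit Atp6v1a fell from 93.4 ± 4.79 to 73.4 ± 9.14 scaled TPM (SD, n = 4; log2 fold change -0.35, SE 0.087, adjusted p = 0.0128), and Atp6ap2, an accessory protein that also serves as the renin receptor, was lower in each library labelled shRNA RUS, 60.2, 62.5, 61.6 and 56.3 scaled TPM in the shRNA CON libraries and 47.0, 39.6, 41.5 and 46.9 in those labelled shRNA RUS (log2 fold change -0.46, SE 0.070, adjusted p = 0.00109). In the autophagy group 11 of 16 rose and 2 fell. Map1lc3b, the LC3 protein that coats autophagosomes, rose by 0.71, and the receptors Optn and Sqstm1 by 0.60 and 0.37 on the log2 scale. The relatives Gabarap and Gabarapl2 went opposite ways, with log2 fold changes of 0.59 and -0.30, and Becn1, a starter of autophagosome formation, fell (-0.22).

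**Figure D3:**
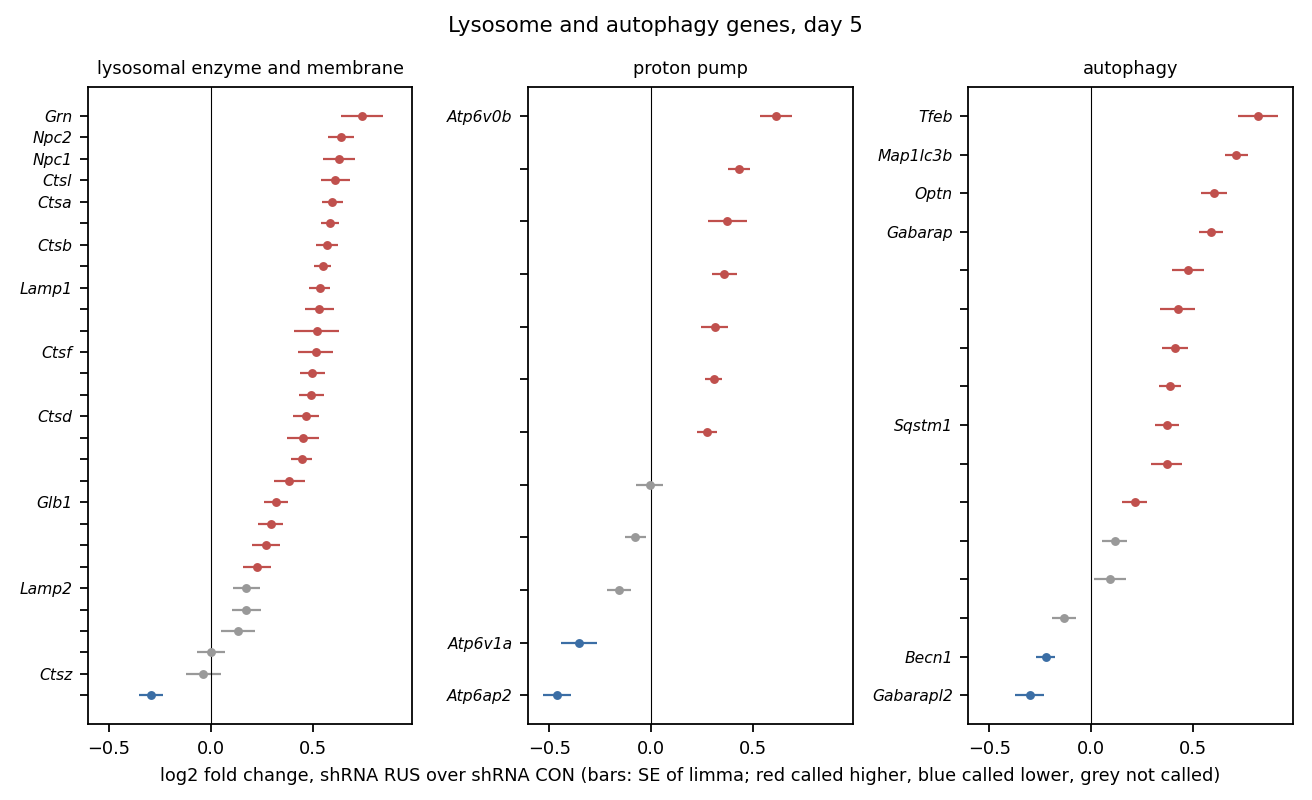
Log2 fold change of each of the 56 lysosome and autophagy genes, libraries labelled shRNA RUS over shRNA CON, in 3 groups (points, with bars for limma's SE). Red points were called higher, blue lower and grey not called, and the blue points include Atp6v1a, Atp6ap2, Becn1 and Gabarapl2. Names are given for the genes described in the text.

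The count of lysosome genes that rose stayed the largest part of the list under each scaling, while its size varied. Its median log2 fold change was 0.38, above the 0.16 of genes of 100 to 300 scaled TPM, and its median over members lay at 0.38, 0.39, 0.41 and 0.28 in the 4 libraries labelled shRNA RUS relative to the control mean. Replicate 4 was the lowest of the 4 but above every control, which lay between -0.019 and 0.021. Without replicate 4 the counts were 40 higher and 6 lower. TPM as deposited gave 34 and 9 with a median of 0.22, and quantile normalization 35 and 7 with a median of 0.24.

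**Figure D4:**
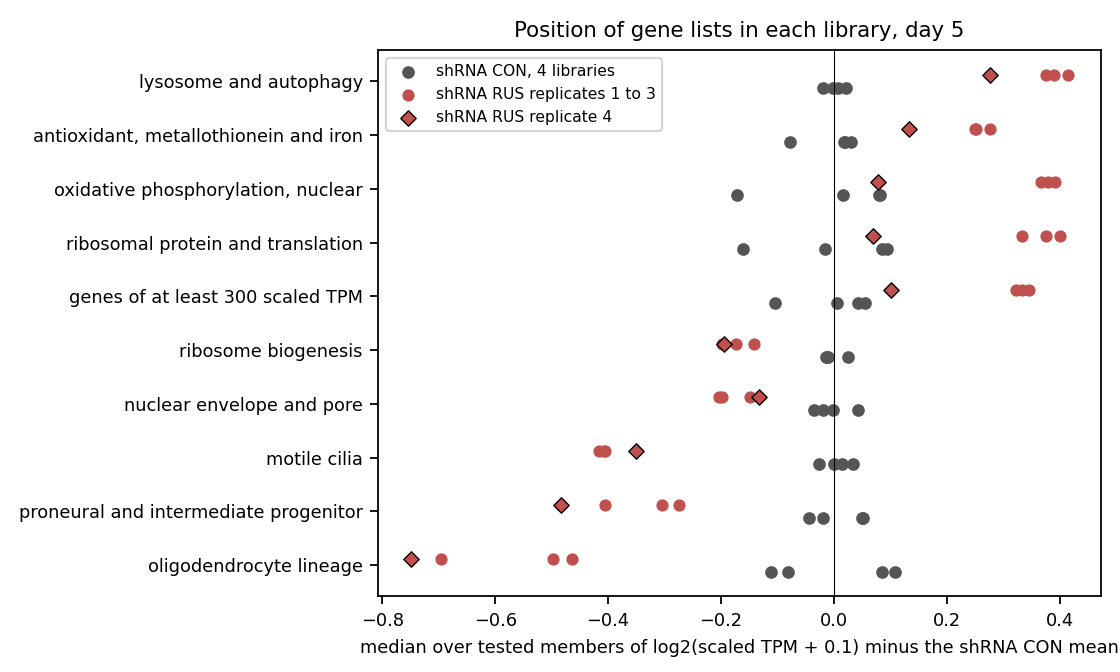
Median over the tested members of a list of log2(scaled TPM + 0.1) minus the mean of the 4 shRNA CON libraries, for each of the 8 libraries (grey circles: shRNA CON; red circles: shRNA RUS replicates 1 to 3; red diamonds: shRNA RUS replicate 4). For oxidative phosphorylation, ribosomal proteins and genes of at least 300 scaled TPM, replicate 4 lies at 0.08, 0.07 and 0.10, near the controls, whereas for the lysosome, ribosome biogenesis, motile cilia and proneural lists it lies with the other libraries of its label.

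Genes for the ribosome and the respiratory chain rose in shares near those of all genes of their level, and their medians stood above every control in only 3 of the 4 libraries labelled shRNA RUS. Of 93 ribosomal protein and translation factor genes 53 rose and 1 fell, with a median log2 fold change of 0.30 beside 0.28 for all genes of at least 300 scaled TPM. The large subunit had 28 of 46 higher (42 without replicate 4), the small subunit 17 of 32 (31 without it) and the translation factors 8 of 15 (11 without it). Rpl13a stood at 1022, 1157, 1119 and 1236 scaled TPM in the shRNA CON libraries and 1757, 1679, 1778 and 1283 in those labelled shRNA RUS (log2 fold change 0.51, SE 0.11, adjusted p = 0.00692). Replicate 4 was the lowest of its label and close to control replicate 4. The authors' table gives Rpl13a a base mean of 885, low beside 7139 for Rps21 at a lower TPM, so its level is less certain. Rps21 stood at 563, 644, 619 and 741 scaled TPM in the shRNA CON libraries and 1089, 989, 1039.8 and 708 in those labelled shRNA RUS (log2 fold change 0.56, SE 0.14, adjusted p = 0.0125), where replicate 4 lay within the range of the controls. The single member that fell was Rpl18, from 783 ± 86.0 to 608 ± 60.1 scaled TPM (SD, n = 4; log2 fold change -0.36, SE 0.097, adjusted p = 0.0184).

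Relative to the control mean, the ribosomal protein list lay at 0.38, 0.33, 0.40 and 0.069 in the 4 libraries labelled shRNA RUS and between -0.16 and 0.093 in the controls, so that replicate 4 overlapped them. Without replicate 4, 84 members rose. With quantile normalization only 10 rose and 3 fell, with a median of 0.047, and with TPM as deposited 27 rose and 4 fell. Many of these genes have processed pseudogenes of nearly the same sequence, so the split of reads among them is uncertain.

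The nuclear genes of oxidative phosphorylation gave the same picture by library, with 41 of 75 higher (54.7%), 4 lower and a median of 0.33, near the 52.2% and 0.28 of all genes of at least 300 scaled TPM. Complex I had 17 of 36 higher and 3 lower, complexes II to IV 15 of 24 and 1, and complex V, the ATP synthase, 9 of 15 and none. Without replicate 4 these were 23 and 3, 20 and 1, and 12 and none. Uqcr10, a small subunit of complex III, stood at 221, 305, 277 and 295 scaled TPM in the shRNA CON libraries and 668, 656, 670.1 and 464 in those labelled shRNA RUS (log2 fold change 1.16, SE 0.14, adjusted p = 0.00032). Its groups did not overlap, and replicate 4 lay between the other libraries of its label and the controls. Ndufs7, which holds an iron-sulphur cluster of complex I, stood at 157, 181, 189.5 and 210.4 scaled TPM in the shRNA CON libraries and 317, 331, 315 and 187 in those labelled shRNA RUS (log2 fold change 0.61, SE 0.18, adjusted p = 0.0257), with replicate 4 among the controls. Cox5a and Ndufa8, of complexes IV and I, fell: Cox5a went from 364 ± 53.5 to 249 ± 19.5 scaled TPM (SD, n = 4; log2 fold change -0.54, SE 0.11, adjusted p = 0.00487) and Ndufa8 from 159 ± 13.5 to 115 ± 13.9 scaled TPM (log2 fold change -0.47, SE 0.099, adjusted p = 0.006). The list lay at 0.37, 0.38, 0.39 and 0.078 in the libraries labelled shRNA RUS, and 55 members rose without replicate 4, against 19 higher and 9 lower after quantile normalization and 28 and 9 with TPM as deposited.

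The 13 messengers of the mitochondrial genome, which code for further subunits of the same complexes, did not follow the nuclear genes: none rose and 2 fell, at a median of -0.0075 (without replicate 4, 0 rose and 3 fell). The members that fell were mt-Nd2, which went from 3117 ± 270.0 to 2322 ± 239 scaled TPM (SD, n = 4; log2 fold change -0.43, SE 0.094, adjusted p = 0.00743), and mt-Atp8, from 7574 ± 1643 to 4161 ± 994 scaled TPM (log2 fold change -0.87, SE 0.21, adjusted p = 0.0112). The mitochondrial values need care, because for 6 of the 13, mt-Atp8 among them, the authors' table gives a base mean of under 10 beside a far higher TPM.

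Ribosome biogenesis, the nucleolar work that precedes the ribosomal proteins' use, went the other way, with 19 of 45 genes lower, 2 higher and a median of -0.21, below the -0.037 of genes of 10 to 30 scaled TPM (without replicate 4, 5 rose and 19 fell). Imp4, a factor of early rRNA cleavage, stood at 27.1, 29.7, 28.1 and 30.5 scaled TPM in the shRNA CON libraries and 14.1, 11.6, 11.8 and 11.9 in those labelled shRNA RUS (log2 fold change -1.22, SE 0.077, adjusted p = 1.69e-05). No library overlapped, and replicate 4 lay amid its label. Mycn, a driver of growth in neural progenitors, stood at 9.14, 9.36, 9.55 and 10.7 scaled TPM in the shRNA CON libraries and 5.28, 5.71, 5.48 and 4.54 in those labelled shRNA RUS (log2 fold change -0.87, SE 0.091, adjusted p = 0.000145), while Myc was not called (0.026; chosen after its value was seen). The box C/D proteins Fbl, Nop56 and Nop58, which methylate rRNA, fell with log2 fold changes of -0.76, -0.57 and -0.55, as did Dkc1 (-0.47) and Gar1 (-0.46) of the pseudouridine enzyme; these 5 were chosen after their values were seen. The other small partner of that enzyme, Nop10, rose from 55.6 ± 2.35 to 66.5 ± 4.59 scaled TPM (log2 fold change 0.26, SE 0.062, adjusted p = 0.0119), a call that was lost with TPM as deposited and with scaling to the 75th percentile. Utp3 also rose (log2 fold change 0.18, adjusted p = 0.0283), and lost its call under 11 of 17 alternatives.

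More proteasome subunits rose (34.3%) than fell (11.4%), both below the shares of all genes of 100 to 300 scaled TPM (42.9% and 13.6%). Of 35 subunits 12 rose and 4 fell at a median of 0.098 (without replicate 4, 17 rose and 5 fell), but the sign of the median turned with TPM as deposited (-0.06, with 5 higher and 10 lower) and with quantile normalization (-0.033, with 4 and 9). Psmd7 of the regulatory lid rose from 115 ± 8.89 to 158 ± 6.58 scaled TPM (log2 fold change 0.46, SE 0.066, adjusted p = 0.00078), and its partners Psmd12 and Psmd6 fell, with log2 fold changes of -0.33 (adjusted p = 0.00222) and -0.26 (adjusted p = 0.0146). Psmb4 rose by 0.41 (adjusted p = 0.0295), with replicate 4 within the controls and the call lost under 12 alternatives.

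Of 30 genes for defence against oxidants and metals 14 rose (46.7%) and 2 fell (without replicate 4, 16 rose and 3 fell). The share that rose lies near the 42.9% of all genes of 100 to 300 scaled TPM, at a median of 0.23 beside 0.16. All 3 metallothioneins, which bind zinc and copper, rose. Mt1 stood at 4586, 4305, 4849 and 5309 scaled TPM in the shRNA CON libraries and 9145, 8945, 9046 and 5777 in those labelled shRNA RUS (log2 fold change 0.77, SE 0.15, adjusted p = 0.00442), where replicate 4 was well below the other libraries of its label and just above the controls. Mt2 and Mt3 had log2 fold changes of 0.48 and 0.47, and these, Hmox1 and Fth1 were chosen after their values were seen. Nqo1, a quinone reductase and a target of NRF2, stood at 16.3, 18.9, 17.9 and 17.7 scaled TPM in the shRNA CON libraries and 29.9, 28.3, 24.5 and 27.2 in those labelled shRNA RUS (log2 fold change 0.63, SE 0.076, adjusted p = 0.000317) without overlap, and Hmox1, which degrades haem, rose by 0.62 on the log2 scale. The ferritin subunits changed in opposite directions. Ftl1, the light chain, fell from 2417 ± 171 to 1576 ± 203 scaled TPM (SD, n = 4; log2 fold change -0.62, SE 0.10, adjusted p = 0.00163). In contrast, Fth1, the heavy chain, rose from 7563 ± 587 to 9755 ± 857 scaled TPM (log2 fold change 0.37). Tfrc, which takes up iron, fell from 32.7 ± 1.93 to 23.5 ± 3.07 scaled TPM (log2 fold change -0.48, SE 0.095, adjusted p = 0.00413). Quantile normalization left 7 of the list higher and 3 lower.

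Heat shock and endoplasmic reticulum stress genes had 8 of 32 higher and 6 lower (without replicate 4, 8 rose and 6 fell), with a median of 0.02 that turned negative with TPM as deposited (6 higher and 13 lower), quantile normalization and scaling to the 75th percentile. The small chaperone Cryab stood at 395, 456, 432 and 475 scaled TPM in the shRNA CON libraries and 782, 736, 802 and 619 in those labelled shRNA RUS (log2 fold change 0.74, SE 0.092, adjusted p = 0.00038). Bag3, its partner in chaperone-assisted autophagy, stood at 27.7, 28.8, 28.0 and 30.6 scaled TPM in the shRNA CON libraries and 42.3, 50.5, 51.0 and 44.9 in those labelled shRNA RUS (log2 fold change 0.71, SE 0.072, adjusted p = 0.000129). Neither overlapped. The abundant chaperone Hsp90aa1 fell from 674 ± 42.1 to 449 ± 50.8 scaled TPM (SD, n = 4; log2 fold change -0.59, SE 0.086, adjusted p = 0.000852), as did Edem1, which marks misfolded glycoproteins for removal (log2 fold change -0.38, SE 0.071, adjusted p = 0.00331). Of the integrated stress response, 6 of 33 genes rose and 9 fell (median -0.047; 2 and 16 with TPM as deposited; without replicate 4, 8 rose and 8 fell). Psph of serine synthesis rose from 97.9 ± 6.71 to 151 ± 15.1 scaled TPM (log2 fold change 0.63, SE 0.083, adjusted p = 0.00052). The phosphatase subunit Ppp1r15a rose, with replicate 4 among the controls (log2 fold change 0.62, SE 0.18, adjusted p = 0.0252). The amino acid carrier Slc7a1 and Chac1, which degrades glutathione, fell with log2 fold changes of -0.79 and -0.65 (adjusted p = 0.000627 and 0.00931). Among p53 targets 4 of 23 rose and 10 fell (median -0.18; without replicate 4, 5 rose and 11 fell). Phlda3, an inhibitor of AKT, rose from 181 ± 7.53 to 299 ± 31.0 scaled TPM (log2 fold change 0.72, SE 0.076, adjusted p = 0.000153). In contrast, Pmaip1, which codes for the pro-apoptotic NOXA, fell from 12.5 ± 0.968 to 5.93 ± 0.663 scaled TPM (log2 fold change -1.07, SE 0.096, adjusted p = 6.9e-05). The receptor gene Eda2r fell from 20.7 ± 1.93 to 10.4 ± 1.94 scaled TPM (log2 fold change -0.99, SE 0.13, adjusted p = 0.000471). Ddb2 rose by 0.24 (adjusted p = 0.0361), a call lost under 10 alternatives.

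Many genes of the nuclear envelope and its pores fell. Of 39 genes 17 fell and 2 rose (median -0.21; without replicate 4, 3 rose and 19 fell), and none of the 27 pore genes rose while 12 fell. Lmnb2, a B-type lamin, stood at 11.1, 11.2, 11.5 and 13.3 scaled TPM in the shRNA CON libraries and 5.87, 6.49, 6.65 and 5.54 in those labelled shRNA RUS (log2 fold change -0.92, SE 0.089, adjusted p = 9.87e-05). Nup155, a structural ring protein of the pore, stood at 14.5, 11.7, 13.5 and 10.9 scaled TPM in the shRNA CON libraries and 6.18, 7.29, 6.39 and 9.21 in those labelled shRNA RUS (log2 fold change -0.80, SE 0.14, adjusted p = 0.00226). Both were lower in all 4 libraries. The members of the outer ring, Nup107, Nup160, Nup37 and Nup133, fell with log2 fold changes of -0.59, -0.59, -0.52 and -0.41; these 4 were chosen after their values were seen. In contrast, 2 genes that link the nucleus to the cytoskeleton rose. Syne2 went from 25.9 ± 1.79 to 41.3 ± 6.51 scaled TPM (log2 fold change 0.66, SE 0.11, adjusted p = 0.00183). Sun2 went from 25.4 ± 2.97 to 34.1 ± 3.81 scaled TPM (log2 fold change 0.42, SE 0.10, adjusted p = 0.0113), but was not called with TPM as deposited.

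Chromatin genes had 17 of 53 lower and 10 higher (median -0.081; without replicate 4, 11 rose and 18 fell), and paralogs within Polycomb changed in opposite directions. Of 18 Polycomb genes 4 rose and 7 fell. Suz12, a core subunit of PRC2, fell from 27.0 ± 1.99 to 16.4 ± 1.94 scaled TPM (log2 fold change -0.73, SE 0.090, adjusted p = 0.000364). Phf19, an accessory subunit that guides PRC2 to its targets, stood at 15.2, 16.1, 15.1 and 14.7 scaled TPM in the shRNA CON libraries and 7.27, 9.80, 9.23 and 10.6 in those labelled shRNA RUS (log2 fold change -0.73, SE 0.11, adjusted p = 0.000994). The groups did not overlap for either. Ezh1, the methyltransferase of non-dividing cells, stood at 10.7, 9.32, 9.87 and 9.37 scaled TPM in the shRNA CON libraries and 15.2, 16.4, 17.8 and 18.1 in those labelled shRNA RUS (log2 fold change 0.77, SE 0.078, adjusted p = 0.000124). Among the chromobox proteins of PRC1, Cbx6 rose from 33.4 ± 2.41 to 56.9 ± 4.68 scaled TPM (log2 fold change 0.76, SE 0.076, adjusted p = 0.000116), Cbx7 rose by 0.47 on the log2 scale, and Cbx2 fell with a log2 fold change of -0.52. The DNA methylation group had 4 of 11 lower and 2 higher (6 and 2 without replicate 4). Among them were Dnmt1, which copies methylation after replication (-0.69), Dnmt3a (-0.38) and Mbd2 (0.52). In the BAF remodelling complex 6 of 24 fell and 4 rose, with Smarca2 at -0.51 and Smarcd1 at 0.44. The members of this paragraph other than Suz12, Phf19, Ezh1 and Cbx6 were chosen after their values were seen.

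Imprinted genes, which are expressed from the allele of 1 parent, had 3 of 22 higher and 5 lower (median -0.056; without replicate 4, 3 rose and 7 fell). Rian, a maternally expressed lncRNA that hosts snoRNAs, fell from 61.8 ± 6.00 to 28.6 ± 3.60 scaled TPM (log2 fold change -1.11, SE 0.098, adjusted p = 6.56e-05). The zinc finger gene Plagl1 fell from 33.2 ± 3.49 to 22.5 ± 4.45 scaled TPM (log2 fold change -0.58, SE 0.13, adjusted p = 0.00977). Snrpn rose from 56.9 ± 0.825 to 87.5 ± 6.87 scaled TPM (log2 fold change 0.62, SE 0.061, adjusted p = 0.00011). Ndn rose by 0.38 (adjusted p = 0.0128), with replicate 4 inside the range of the controls.

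Markers of glia moved in both directions within the same list. In bulk samples like these, fewer cells of a type and less RNA per cell cannot be told apart. Of 21 radial glia and stem cell genes 5 rose and 5 fell (without replicate 4, 7 rose and 5 fell), but 3 rose and 9 fell with TPM as deposited and 3 and 8 after quantile normalization. Vim, the intermediate filament of radial glia, stood at 7491, 8582, 8598 and 9146 scaled TPM in the shRNA CON libraries and 13519.5, 12765, 12904 and 10554 in those labelled shRNA RUS (log2 fold change 0.55, SE 0.10, adjusted p = 0.00327). The transcription factor gene Emx2 rose from 20.1 ± 1.46 to 31.1 ± 3.39 scaled TPM (log2 fold change 0.62, SE 0.089, adjusted p = 0.000778). Neither overlapped, although Vim lost its call after quantile normalization. The median of the list was -0.017. Its summed level, of which Vim alone made up the larger part, was 12491 to 14512 scaled TPM in the controls and 17428 to 20504 in the libraries labelled shRNA RUS. Tnc, a matrix protein around stem cells, fell from 13.1 ± 0.317 to 7.27 ± 1.30 scaled TPM (log2 fold change -0.86, SE 0.12, adjusted p = 0.000632). Hes5, a Notch target, stood at 7.80, 7.74, 9.09 and 11.2 scaled TPM in the shRNA CON libraries and 5.74, 8.18, 5.01 and 3.92 in those labelled shRNA RUS (log2 fold change -0.67, SE 0.21, adjusted p = 0.0357), where the groups overlapped, and it lost its call under 9 alternatives.

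Of 25 astrocyte genes, with a median level of 324 scaled TPM, 11 rose and 5 fell. Their share of 44% higher and median of 0.097 lie below those of all genes of at least 300 scaled TPM (52.2% and 0.28). The sign of the median turned with TPM as deposited (-0.061, with 7 and 7) and with quantile normalization (-0.12, with 6 and 7) (without replicate 4, 11 rose and 5 fell). The summed level of the list was 19999 to 24593 scaled TPM in the controls and 26188 to 36158 in the libraries labelled shRNA RUS. Its most abundant members, which made up most of the rise of the sum, were Apoe, the lipid carrier of astrocytes, and Cst3, a protease inhibitor. Apoe stood at 5925, 6618, 6946 and 8626 scaled TPM in the shRNA CON libraries and 13363, 13559.7, 13642 and 8197 in those labelled shRNA RUS (log2 fold change 0.78, SE 0.18, adjusted p = 0.0106), so that replicates 1 to 3 lay above the controls and replicate 4 within them. Cst3 gave the same picture with 3694, 4149.9, 4623 and 5656 scaled TPM in the shRNA CON libraries and 8672, 9203, 8399.6 and 5136 in those labelled shRNA RUS (log2 fold change 0.78, SE 0.20, adjusted p = 0.0149). Against them, Fgfr3, a receptor for FGF that marks the astrocyte lineage in the cortex, stood at 115, 105, 113 and 115 scaled TPM in the shRNA CON libraries and 46.1, 51.7, 45.4 and 59.7 in those labelled shRNA RUS (log2 fold change -1.15, SE 0.087, adjusted p = 3.46e-05) without overlap, and the gap junction gene Gjb6 fell from 6.42 ± 0.299 to 3.13 ± 0.439 scaled TPM (log2 fold change -1.02, SE 0.11, adjusted p = 0.00017).

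Reactive astrocyte genes had 13 of 35 higher and 6 lower (median 0.17; without replicate 4, 13 rose and 6 fell). The group described after both inflammation and ischaemia had 9 of 13 higher and 1 lower at a median of 0.60, the group described after inflammation 2 of 11 and 2, and the group described after ischaemia 2 of 11 and 3. Aspg, an asparaginase, stood at 1.77, 1.99, 2.18 and 2.97 scaled TPM in the shRNA CON libraries and 6.84, 8.30, 8.42 and 7.51 in those labelled shRNA RUS (log2 fold change 1.78, SE 0.15, adjusted p = 5.76e-05), without overlap. Further genes of the group shared by both states that rose, chosen after their values were seen, were Serpina3n (0.75), Steap4 (0.98), S1pr3 (0.61), Timp1 (0.41), Osmr (0.42) and Hspb1 (0.60). Lcn2, a secreted lipocalin often used as a sign of reactive astrocytes, fell instead, from 84.8, 75.1, 75.6 and 88.9 in the shRNA CON libraries to 61.1, 45.6, 43.8 and 35.1 in those labelled shRNA RUS (log2 fold change -0.83, SE 0.15, adjusted p = 0.00238). Tgm1, a transglutaminase, also fell from 32.8 ± 1.03 to 17.8 ± 1.58 scaled TPM (log2 fold change -0.89, SE 0.072, adjusted p = 4.64e-05).

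The sphingosine-1-phosphate pathway held one of the largest relative increases of any named gene. This lipid is made by the kinases Sphk1 and Sphk2, exported by Spns2 and read by G protein-coupled receptors. Of 9 genes 4 rose and 2 fell (without replicate 4, 4 rose and 2 fell). Sphk1 stood at 0.773, 0.801, 1.07 and 0.894 scaled TPM in the shRNA CON libraries and 3.85, 5.12, 5.00 and 3.65 in those labelled shRNA RUS (log2 fold change 2.19, SE 0.16, adjusted p = 2.64e-05), low in every control and between 3.65 and 5.12 in every library labelled shRNA RUS. Sphk2 rose from 15.7 ± 0.602 to 27.1 ± 3.44 scaled TPM (log2 fold change 0.78, SE 0.090, adjusted p = 0.000244). The receptors S1pr1 and S1pr3 rose from 109.7 ± 4.73 to 185 ± 8.91 scaled TPM and from 234 ± 8.03 to 357 ± 10.5 scaled TPM (SD, n = 4; log2 fold changes 0.75 and 0.61), both chosen after their values were seen. The exporter Spns2 and the phosphatase Sgpp1 fell with log2 fold changes of -0.33 and -0.30 (adjusted p = 0.0279 and 0.0168), calls that were lost under 7 and 3 alternatives.

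Oligodendrocyte lineage genes fell in the precursor group, 5 of 10 with none higher at a median of -0.75, beside 2 of 11 lower and 2 higher in the myelin group (over both, without replicate 4, 2 rose and 8 fell). Pdgfra, the PDGF receptor of precursors, stood at 22.1, 18.8, 18.0 and 21.2 scaled TPM in the shRNA CON libraries and 11.3, 7.92, 7.98 and 9.22 in those labelled shRNA RUS (log2 fold change -1.14, SE 0.12, adjusted p = 0.000163), without overlap, and Sox10, the lineage factor, fell with a log2 fold change of -1.13 (chosen after its value was seen). The tight junction gene Cldn11 fell from 3.50 ± 0.510 to 1.37 ± 0.474 scaled TPM (log2 fold change -1.34, SE 0.23, adjusted p = 0.00193). Cnp and Mal, which are part of myelin but are also found outside it, rose. Cnp stood at 119, 118, 122 and 126 scaled TPM in the shRNA CON libraries and 275, 302, 291 and 246 in those labelled shRNA RUS (log2 fold change 1.20, SE 0.067, adjusted p = 1.24e-05). Mal went from 6.18 ± 0.636 to 12.9 ± 0.817 scaled TPM (log2 fold change 1.05, SE 0.088, adjusted p = 5.4e-05). Levels of most markers were low, with 7 of 23 above 10 scaled TPM, and the summed levels of the precursor and myelin genes went opposite ways. The precursor sum was 272 to 361 scaled TPM in the controls and 181 to 276 in the libraries labelled shRNA RUS, and the myelin sum, most of it Cnp, was 145 to 153 and 277 to 329.

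Of 24 tested motile cilia genes 15 fell and 1 rose, at a median of -0.36 beside -0.037 for genes of 10 to 30 scaled TPM (without replicate 4, 1 rose and 16 fell). Gmnc, which starts the program of multiciliated cells, stood at 9.58, 7.10, 8.65 and 9.30 scaled TPM in the shRNA CON libraries and 2.48, 2.04, 1.81 and 3.24 in those labelled shRNA RUS (log2 fold change -1.84, SE 0.18, adjusted p = 9.37e-05). Spag16, an axonemal protein, stood at 3.95, 4.01, 3.86 and 4.00 scaled TPM in the shRNA CON libraries and 1.65, 2.07, 1.72 and 2.15 in those labelled shRNA RUS (log2 fold change -1.03, SE 0.11, adjusted p = 0.000161). No library overlapped in either case. Foxj1, the factor of ciliated cells, was not called (-0.077), and Mcidas, which acts after Gmnc, was not called either (-0.55); both were chosen after their values were seen. The summed level ran from 559 to 635 scaled TPM in the controls and from 461 to 527 in the libraries labelled shRNA RUS.

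In the lists of neuronal commitment some members fell and none rose, although 1 member of each rose without replicate 4. Of 17 proneural and intermediate progenitor genes 10 fell (median -0.37; without replicate 4, 1 rose and 10 fell), and of 22 GABAergic interneuron genes 8 fell (36.4%; median -0.26; without replicate 4, 1 rose and 7 fell). The share of the GABAergic list, whose median level was 6.48 scaled TPM, lies near the 30.7% that fell among all genes of 3 to 10 scaled TPM. The RNA-binding proteins Elavl2 and Elavl4, early marks of neurons, fell without overlap. Elavl2 stood at 8.61, 5.60, 7.95 and 6.75 scaled TPM in the shRNA CON libraries and 5.28, 3.13, 2.70 and 3.97 in those labelled shRNA RUS (log2 fold change -0.95, SE 0.21, adjusted p = 0.0076). Elavl4 went from 10.8 ± 2.43 to 5.54 ± 0.712 scaled TPM (log2 fold change -0.93, SE 0.16, adjusted p = 0.00209). Dlx6os1, the lncRNA of the Dlx5 and Dlx6 locus, stood at 18.4, 14.1, 14.6 and 17.9 scaled TPM in the shRNA CON libraries and 10.5, 7.78, 10.3 and 10.4 in those labelled shRNA RUS (log2 fold change -0.73, SE 0.13, adjusted p = 0.00212), and Dlx5, Dlx6 and Dlx1 fell with log2 fold changes of -0.34, -0.55 and -0.25 (chosen after their values were seen). Npas1 fell from 2.26 ± 0.466 to 1.30 ± 0.251 scaled TPM (log2 fold change -0.75, SE 0.19, adjusted p = 0.0147). The summed levels in the controls and in the libraries labelled shRNA RUS were 617 to 716 and 465 to 631 scaled TPM for the proneural list and 294 to 355 and 256 to 303 for the GABAergic list. Of 18 genes of cortical projection neurons 3 fell and 1 rose (without replicate 4, 1 rose and 3 fell). Fezf2, the factor of deep-layer neurons, fell from 6.00 ± 0.590 to 3.50 ± 0.382 scaled TPM (log2 fold change -0.76, SE 0.11, adjusted p = 0.000741). Pou3f2 fell from 21.0 ± 0.699 to 15.7 ± 1.02 scaled TPM (log2 fold change -0.42, SE 0.063, adjusted p = 0.00109). Cux1 rose from 47.4 ± 0.869 to 59.5 ± 4.03 scaled TPM (log2 fold change 0.32, SE 0.058, adjusted p = 0.00254), except with TPM as deposited.

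Genes used as markers of cells from outside the neural lineage were detected as well, but not all are confined to such cells. Microglia genes summed to 269 to 292 scaled TPM in the controls and 251 to 334 in the libraries labelled shRNA RUS, and 2 of 18 rose and 3 fell, at a median of -0.046 that turned positive (0.016) after quantile normalization (without replicate 4, 4 rose and 3 fell). Csf1r, the receptor on which microglia depend, fell from 8.30 ± 0.328 to 5.67 ± 0.452 scaled TPM (log2 fold change -0.54, SE 0.078, adjusted p = 0.000801). Tmem119 fell from 3.61 ± 0.367 to 1.81 ± 0.287 scaled TPM (log2 fold change -0.97, SE 0.14, adjusted p = 0.000716). In contrast, Trem2 rose from 4.61 ± 0.767 to 7.73 ± 1.26 scaled TPM (log2 fold change 0.73, SE 0.15, adjusted p = 0.00512). Tyrobp rose by 0.39 (adjusted p = 0.0499), a call lost under 13 alternatives. Endothelial genes, of which 7 of 12 could be tested, summed to 44.1 to 46.3 scaled TPM in the controls and 52.4 to 65.7 in the libraries labelled shRNA RUS; 1 rose, the transporter gene Slco1a4 (0.48, adjusted p = 0.00211), which astrocytes also express and which alone made up most of the sum and its rise, and 2 fell (without replicate 4, 1 rose and 1 fell), among them Kdr (-0.91, adjusted p = 0.000231). Of 14 mural and fibroblast genes 3 rose and 3 fell (without replicate 4, 2 rose and 3 fell). Their summed level was 687 to 815 scaled TPM in the controls and 497 to 564 in the libraries labelled shRNA RUS. Most of this fall was that of Tagln, and the parts of the list went opposite ways. Of 7 tested mural genes 1 rose and 3 fell, and their sum was 623 to 746 scaled TPM in the controls and 417 to 470 in the libraries labelled shRNA RUS. Of 7 tested fibroblast genes 2 rose and 0 fell, and their sum was 61.39 to 70.87 and 80.03 to 98.48. Tagln, a contractile protein, stood at 305, 392, 327 and 344 scaled TPM in the shRNA CON libraries and 169, 147, 140.2 and 158 in those labelled shRNA RUS (log2 fold change -1.15, SE 0.088, adjusted p = 3.46e-05). Notch3, which the Notch list also holds, fell from 17.3 ± 0.673 to 12.8 ± 1.79 scaled TPM (log2 fold change -0.44, SE 0.099, adjusted p = 0.00816). Ptgds and Foxc1 rose by 0.61 and 0.74 on the log2 scale (adjusted p = 0.00074 and 0.00548).

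Kcnj10, the Kir4.1 channel by which glia take up potassium, stood at 236, 219.6, 222 and 211 scaled TPM in the shRNA CON libraries and 70.1, 74.2, 66.0 and 93.7 in those labelled shRNA RUS (log2 fold change -1.56, SE 0.10, adjusted p = 1.75e-05), a fall to about the same level in replicates 1 to 3 and a smaller one in replicate 4. Of 46 potassium channel genes 13 fell (28.3%) and 5 rose (10.9%), at a median of -0.20 (without replicate 4, 5 rose and 14 fell). Of all genes of 1 to 3 scaled TPM, the level of this list, 22.7% fell and 5.74% rose, at a median of -0.19. Kcnd3 fell from 29.4 ± 2.66 to 17.0 ± 3.32 scaled TPM (log2 fold change -0.80, SE 0.13, adjusted p = 0.00129), whereas its relative Kcnd2 and the Kv1 gene Kcna2 rose by 0.43 and 0.69 on the log2 scale (adjusted p = 0.00587 and 0.0018). Of 24 sodium and calcium channel genes, with a median level of 2.99 scaled TPM, 7 fell (29.2%) and 3 rose (without replicate 4, 3 rose and 8 fell). Of all genes, 22.7% fell at 1 to 3 scaled TPM and 30.7% at 3 to 10. The pore-forming sodium channel gene Scn8a fell (log2 fold change -0.50; chosen after its value was seen). Cacna1e and Cacna1c, pore subunits of calcium channels, fell with log2 fold changes of -0.96 and -0.61 (adjusted p = 0.00262 and 0.0164). The beta subunit gene Cacnb1 rose by 0.28 (adjusted p = 0.0288).

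The glutamate receptor, presynaptic and postsynaptic lists had shares near those of all genes, 14.8% higher and 17.9% lower. Their shares higher and lower were 14.3% and 21.4%, 12.5% and 12.5%, and 12.5% and 20.8%. Of 28 glutamate receptor genes 4 rose and 6 fell (without replicate 4, 4 rose and 7 fell). The auxiliary subunits divided: Cacng7 rose from 88.1 ± 5.90 to 125 ± 6.26 scaled TPM (log2 fold change 0.50, SE 0.063, adjusted p = 0.000371), and Cacng4 and Neto2 fell, from 27.9 ± 2.81 to 19.3 ± 1.14 scaled TPM (log2 fold change -0.53, SE 0.080, adjusted p = 0.0011) and from 27.7 ± 1.94 to 16.5 ± 2.69 scaled TPM (log2 fold change -0.76, SE 0.11, adjusted p = 0.00101). Grid1 rose by 0.48 (adjusted p = 0.0263) with overlap. Of 15 GABA and glycine receptor genes 5 fell and 1 rose (without replicate 4, 1 rose and 6 fell), among them Gabra4 (-0.74, adjusted p = 0.00453), Gabra2 (-0.58, adjusted p = 0.036) and the metabotropic Gabbr1, which rose (0.22, adjusted p = 0.0191). Of 24 presynaptic genes 3 rose and 3 fell (without replicate 4, 2 rose and 3 fell), the vesicle proteins Sv2a (0.53, adjusted p = 0.0047) and Syt1 (0.33, adjusted p = 0.0473) upwards and the active zone proteins Unc13a (-0.54, adjusted p = 0.00219) and Pclo (-0.56, adjusted p = 0.016) downwards. Of 24 postsynaptic genes 3 rose and 5 fell (without replicate 4, 4 rose and 7 fell). Gphn, the scaffold of inhibitory synapses, stood at 25.6, 24.7, 27.4 and 25.4 scaled TPM in the shRNA CON libraries and 15.5, 15.8, 15.6 and 16.5 in those labelled shRNA RUS (log2 fold change -0.70, SE 0.055, adjusted p = 4.09e-05), with no overlap, and Nrxn2 rose from 65.3 ± 4.67 to 96.0 ± 17.1 scaled TPM (log2 fold change 0.54, SE 0.12, adjusted p = 0.00782). The paralogs Lrrtm3 and Lrrtm1, which bind neurexins, had log2 fold changes of -0.79 (adjusted p = 0.0193) and 0.43 (adjusted p = 0.0275).

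Neuropeptide and granule genes had 7 of 23 higher and 3 lower, at a median of -0.098 that turned positive among genes of at least 1 TPM (0.23), without shRNA RUS replicate 2 (0.12), without shRNA CON replicate 3 (0.062) and after quantile normalization (0.037) (without replicate 4, 7 rose and 2 fell). With TPM as deposited 3 rose and 5 fell. Nppc, which codes for C-type natriuretic peptide, stood at 7.61, 7.92, 8.23 and 10.9 scaled TPM in the shRNA CON libraries and 2.45, 3.11, 1.92 and 1.51 in those labelled shRNA RUS (log2 fold change -1.93, SE 0.21, adjusted p = 0.000165), the largest fall named among genes of at least 5 scaled TPM. Penk and Vgf rose by 0.73 and 0.55 and Chga fell with a log2 fold change of -0.37 (adjusted p = 0.0148, 0.0481 and 0.0442), and Vgf and Chga lost their calls under 12 and 9 alternatives. Among cytoskeletal genes 7 of 35 rose and 11 fell (without replicate 4, 7 rose and 12 fell), with 7 of 11 tubulins lower and 1 higher. Tubb4a and Tuba1c fell from 34.7 ± 2.70 to 25.6 ± 2.03 scaled TPM and from 46.6 ± 3.07 to 34.9 ± 0.469 scaled TPM (SD, n = 4; adjusted p = 0.00252 and 0.000642). Tuba4a rose from 26.4 ± 1.91 to 40.1 ± 3.51 scaled TPM (log2 fold change 0.60, SE 0.080, adjusted p = 0.000543). Stmn2, a microtubule regulator of growth cones, stood at 133, 148, 137 and 144 scaled TPM in the shRNA CON libraries and 225, 200.1, 224 and 194 in those labelled shRNA RUS (log2 fold change 0.58, SE 0.065, adjusted p = 0.00021). Tubulin genes are close in sequence, so reads may have been split among them.

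Axon guidance genes had 16 of 62 lower (25.8%) and 11 higher (17.7%), at a median of -0.15 (without replicate 4, 10 rose and 20 fell). Of all genes of 3 to 10 scaled TPM, the level of this list, 30.7% fell and 11.3% rose, at a median of -0.13. Netrin and Slit genes had 7 of 13 lower and 1 higher, plexins and neuropilins 3 of 11 lower (6 without replicate 4) and none higher, ephrins and Eph receptors 2 of 19 lower and 5 higher, and semaphorins 4 of 19 lower and 5 higher. With TPM as deposited the balance of the last pair of groups turned, to 4 lower and 2 higher and to 6 lower and 2 higher. Slit1, a repellent of axons, fell from 5.79 ± 1.10 to 3.29 ± 0.567 scaled TPM (log2 fold change -0.79, SE 0.16, adjusted p = 0.0052). Plxna2, a semaphorin receptor, fell from 21.7 ± 1.99 to 13.1 ± 1.84 scaled TPM (log2 fold change -0.73, SE 0.10, adjusted p = 0.000767). The Eph receptors Epha7 and Ephb6 rose, from 1.52 ± 0.297 to 3.10 ± 0.611 scaled TPM (log2 fold change 0.98, SE 0.18, adjusted p = 0.00277) and from 6.01 ± 1.27 to 9.97 ± 1.71 scaled TPM (log2 fold change 0.73, SE 0.17, adjusted p = 0.0088). Extracellular matrix genes had 12 of 51 lower (23.5%) and 4 higher (7.84%), beside 24.8% and 18.8% of all genes of 10 to 30 scaled TPM. The median of the list was -0.11, and 0.022 among genes of at least 1 TPM (without replicate 4, 5 rose and 15 fell). Col2a1 fell from 2.25 ± 0.135 to 0.913 ± 0.222 scaled TPM (log2 fold change -1.24, SE 0.17, adjusted p = 0.000671), and Thbs3 and Col9a1 rose by 0.66 and 0.76 on the log2 scale (adjusted p = 0.000367 and 0.00217). Of 8 tenascins and proteoglycans around neurons 3 fell and none rose.

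The list of integrins and proteases held Serpinb1a, the largest increase named among genes of at least 5 scaled TPM. Of 47 genes 13 rose and 9 fell (without replicate 4, 11 rose and 12 fell), but 6 rose and 15 fell with TPM as deposited. Serpinb1a, an inhibitor of neutrophil serine proteases, stood at 4.50, 3.70, 4.53 and 4.28 scaled TPM in the shRNA CON libraries and 24.5, 24.1, 23.4 and 18.4 in those labelled shRNA RUS (log2 fold change 2.38, SE 0.11, adjusted p = 7.44e-06). Every library labelled shRNA RUS lay far above every control, replicate 4 lowest among them. Mmp14, a membrane-bound metalloprotease, rose from 52.8 ± 2.43 to 87.2 ± 8.06 scaled TPM (log2 fold change 0.72, SE 0.073, adjusted p = 0.000128). In the other direction, Itgb8, a subunit of an integrin that activates TGF-beta, stood at 46.1, 44.9, 42.7 and 36.4 scaled TPM in the shRNA CON libraries and 16.2, 13.8, 11.4 and 21.5 in those labelled shRNA RUS (log2 fold change -1.46, SE 0.17, adjusted p = 0.000278). St14, a membrane serine protease, fell from 2.26 ± 0.278 to 0.428 ± 0.0931 scaled TPM (log2 fold change -2.17, SE 0.18, adjusted p = 4.54e-05). Of 17 integrins 5 rose and 2 fell, Itgb8 and Itga4, the latter named after its value was seen, but 3 rose and 4 fell without replicate 4, and none rose and 4 fell with TPM as deposited.

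Of the signalling lists, Notch had 8 of 21 genes lower and 3 higher (median -0.29; without replicate 4, 3 rose and 9 fell) and hedgehog 5 of 13 lower and 1 higher (median -0.23; without replicate 4, 1 rose and 6 fell). Lfng, a glycosyltransferase that tunes Notch receptors, stood at 95.1, 83.3, 95.9 and 92.4 scaled TPM in the shRNA CON libraries and 51.7, 54.0, 48.8 and 44.6 in those labelled shRNA RUS (log2 fold change -0.88, SE 0.073, adjusted p = 4.97e-05). Hey2, an effector of Notch, and Maml1, a coactivator, rose instead. Hey2 stood at 3.27, 3.24, 3.54 and 3.53 scaled TPM in the shRNA CON libraries and 8.29, 7.15, 7.27 and 7.24 in those labelled shRNA RUS (log2 fold change 1.12, SE 0.082, adjusted p = 3.08e-05). Maml1 rose from 6.06 ± 0.156 to 9.79 ± 0.367 scaled TPM (log2 fold change 0.68, SE 0.064, adjusted p = 8.49e-05). In the hedgehog list the co-receptor Cdon and the receptor Ptch1, which is also a target of the pathway, fell from 16.4 ± 0.564 to 10.7 ± 1.62 scaled TPM (log2 fold change -0.62, SE 0.10, adjusted p = 0.00142) and from 23.6 ± 2.47 to 15.9 ± 2.91 scaled TPM (log2 fold change -0.57, SE 0.12, adjusted p = 0.00659). In contrast, the transducer Smo rose from 52.6 ± 2.54 to 69.6 ± 4.51 scaled TPM (log2 fold change 0.40, SE 0.062, adjusted p = 0.00113). All of these groups were free of overlap.

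Wnt genes had 11 of 48 lower (22.9%) and 8 higher (16.7%), at a median of -0.16 (without replicate 4, 10 rose and 10 fell). Of all genes of 3 to 10 scaled TPM, the level of this list, 30.7% fell and 11.3% rose, at a median of -0.13. Of 10 ligands 5 fell and 1 rose, but 3 fell and 2 rose without replicate 4. After quantile normalization 3 ligands fell and 1 rose. Wnt9a stood at 9.65, 9.43, 9.27 and 10.6 scaled TPM in the shRNA CON libraries and 4.17, 4.70, 3.90 and 3.95 in those labelled shRNA RUS (log2 fold change -1.20, SE 0.086, adjusted p = 2.64e-05). The secreted antagonist Sfrp5 fell from 9.36 ± 1.80 to 4.61 ± 1.07 scaled TPM (log2 fold change -1.02, SE 0.18, adjusted p = 0.00244). Dkk3 and Tcf7l1 rose, from 149 ± 6.29 to 213 ± 7.41 scaled TPM (log2 fold change 0.51, SE 0.050, adjusted p = 0.000105) and from 10.2 ± 0.261 to 14.5 ± 1.93 scaled TPM (log2 fold change 0.49, SE 0.094, adjusted p = 0.00365). Of 26 FGF and ERK genes 6 rose and 4 fell (without replicate 4, 6 rose and 5 fell), but 2 rose and 7 fell with TPM as deposited. The ligand Fgf2, a growth factor that is also added to the medium, stood at 17.7, 17.5, 17.9 and 16.4 scaled TPM in the shRNA CON libraries and 27.6, 27.0, 26.6 and 34.5 in those labelled shRNA RUS (log2 fold change 0.72, SE 0.087, adjusted p = 0.000303), highest in replicate 4, and Fgf1 rose from 25.4 ± 0.973 to 33.7 ± 1.21 scaled TPM (log2 fold change 0.40, SE 0.053, adjusted p = 0.000484). Besides Fgfr3, the intracellular Fgf14 fell from 2.20 ± 0.248 to 0.701 ± 0.161 scaled TPM (log2 fold change -1.54, SE 0.17, adjusted p = 0.000213). The feedback genes of the pathway had 2 of 14 higher and 1 lower. Of 39 BMP and TGF-beta genes 7 rose (17.9%) and 13 fell (33.3%), beside 11.3% and 30.7% of all genes of 3 to 10 scaled TPM (without replicate 4, 6 rose and 15 fell). Among 16 receptors and Smads 2 rose and 7 fell, but 0 rose and 9 fell without replicate 4. With TPM as deposited 0 of them rose and 10 fell. Tgfb3 stood at 10.5, 9.95, 9.88 and 9.87 scaled TPM in the shRNA CON libraries and 4.75, 5.69, 4.73 and 5.65 in those labelled shRNA RUS (log2 fold change -0.94, SE 0.085, adjusted p = 7.26e-05). Inhbb, a subunit of activin, fell from 11.6 ± 0.614 to 6.82 ± 0.589 scaled TPM (log2 fold change -0.76, SE 0.080, adjusted p = 0.000141). Tgfb2 rose from 25.2 ± 1.70 to 35.8 ± 2.94 scaled TPM (log2 fold change 0.51, SE 0.075, adjusted p = 0.000935). Id3, a target of BMP, rose with overlap in replicate 4, 180.2, 235, 223 and 248 scaled TPM in the shRNA CON libraries and 344, 386, 376 and 244 in those labelled shRNA RUS (log2 fold change 0.59, SE 0.15, adjusted p = 0.0157).

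In the YAP and TAZ list factors and targets were counted apart. Of 8 factors and regulators 5 rose and none fell (5 and 2 without replicate 4, 5 and 1 with TPM as deposited), at a median of 0.47, whereas 7 of 20 targets rose and 9 fell (over both, without replicate 4, 12 rose and 12 fell, and 10 rose and 12 fell with TPM as deposited). Tead4 rose from 1.08 ± 0.181 to 2.10 ± 0.441 scaled TPM (log2 fold change 0.88, SE 0.18, adjusted p = 0.00511), and Yap1, Wwtr1 (TAZ) and Tead3 rose by 0.52, 0.69 and 0.63 on the log2 scale. Among the targets, Igfbp3, which binds insulin-like growth factors, stood at 423, 507, 508 and 453 scaled TPM in the shRNA CON libraries and 953, 1006, 1046 and 945 in those labelled shRNA RUS (log2 fold change 1.07, SE 0.073, adjusted p = 2.08e-05), while Nuak2 and Crim1 fell, from 31.1 ± 1.03 to 16.8 ± 1.78 scaled TPM (log2 fold change -0.89, SE 0.081, adjusted p = 7.37e-05) and from 27.3 ± 5.11 to 14.9 ± 3.84 scaled TPM (log2 fold change -0.89, SE 0.17, adjusted p = 0.00423). The classical targets Ccn2 and Ccn1 had log2 fold changes of -0.42 (called) and -0.22 (not called). Of these, Yap1, Wwtr1, Tead3, Ccn1 and Ccn2 were chosen after their values were seen.

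Immediate early genes had 9 of 27 higher and 3 lower, at a median of 0.24 (without replicate 4, 11 rose and 4 fell), but 3 higher and 7 lower with TPM as deposited. Ier3 rose from 14.1 ± 1.21 to 25.1 ± 3.16 scaled TPM (log2 fold change 0.82, SE 0.10, adjusted p = 0.000397). Klf2 rose by 0.78 with overlap (adjusted p = 0.0266). Klf10 and Dusp1, a phosphatase that ends MAP kinase signals, fell from 13.2 ± 0.826 to 7.53 ± 0.358 scaled TPM (log2 fold change -0.80, SE 0.071, adjusted p = 6.68e-05) and from 15.7 ± 1.13 to 10.8 ± 0.606 scaled TPM (log2 fold change -0.53, SE 0.073, adjusted p = 0.000628). Of 26 cytokine, chemokine and complement genes 7 rose and 4 fell (without replicate 4, 6 rose and 4 fell). Of the NF-kB subunits, Relb, Nfkb2 (0.55) and Rela (0.54) rose and Nfkb1 fell (-0.30), and the inhibitor gene Nfkbia rose; Nfkb1, Nfkb2 and Rela were chosen after their values were seen. Relb stood at 9.74, 8.23, 9.44 and 12.1 scaled TPM in the shRNA CON libraries and 16.2, 18.3, 19.1 and 15.2 in those labelled shRNA RUS (log2 fold change 0.80, SE 0.12, adjusted p = 0.00104). Nfkbia stood at 38.7, 36.1, 39.3 and 41.0 scaled TPM in the shRNA CON libraries and 69.7, 64.6, 67.2 and 55.5 in those labelled shRNA RUS (log2 fold change 0.72, SE 0.077, adjusted p = 0.00016). Neither overlapped. In contrast, Icam1 and Csf1, which NF-kB can induce, fell: Icam1 went from 22.5 ± 0.823 to 11.7 ± 1.02 scaled TPM (log2 fold change -0.94, SE 0.074, adjusted p = 3.91e-05) and Csf1, the ligand of Csf1r, from 76.7 ± 0.521 to 47.1 ± 4.80 scaled TPM (log2 fold change -0.71, SE 0.074, adjusted p = 0.000139).

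The interferon response had more genes lower than higher, 13 and 6 of 35, and antigen presentation 3 and 2 of 10, at a median of -0.15 for both together (without replicate 4, 8 rose and 15 fell). Interferon acts through the element ISRE, and its core was searched on either strand as GAAA, 2 free bases and GAAA. The promoters of 2 genes that fell, Oas1a, which makes an activator of RNase L, and Ifih1, a sensor of double-stranded RNA, and of 1 gene that rose, Ifitm3, a membrane protein against viral entry, are given to show that the element stands in genes of both directions. They run 5′ to 3′ on the minus strand of GRCm38.p6 from RefSeq at chr5:120907476-120907775, chr2:62646206-62646505 and chr7:141010695-141010994, with matches in capitals and overlapping matches joined.
Oas1a: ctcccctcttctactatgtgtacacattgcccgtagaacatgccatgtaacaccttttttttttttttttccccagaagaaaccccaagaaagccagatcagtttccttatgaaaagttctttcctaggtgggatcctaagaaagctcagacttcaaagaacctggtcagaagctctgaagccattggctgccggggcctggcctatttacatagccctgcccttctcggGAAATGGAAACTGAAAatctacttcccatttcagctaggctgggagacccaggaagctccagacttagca
Ifih1: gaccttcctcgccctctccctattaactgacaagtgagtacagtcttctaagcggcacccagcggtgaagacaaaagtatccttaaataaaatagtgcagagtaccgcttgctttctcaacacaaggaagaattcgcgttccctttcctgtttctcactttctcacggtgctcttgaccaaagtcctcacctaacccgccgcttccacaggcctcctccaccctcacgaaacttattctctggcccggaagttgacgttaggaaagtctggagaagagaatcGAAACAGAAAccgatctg
Ifitm3: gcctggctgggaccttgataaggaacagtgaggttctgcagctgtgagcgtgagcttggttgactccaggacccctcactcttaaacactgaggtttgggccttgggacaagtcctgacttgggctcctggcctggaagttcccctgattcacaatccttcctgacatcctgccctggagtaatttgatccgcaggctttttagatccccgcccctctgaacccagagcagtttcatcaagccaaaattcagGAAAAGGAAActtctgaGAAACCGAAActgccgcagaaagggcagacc

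Among 35 tested members with a promoter, 17 held the core (48.6%), beside 3.76% of tested genes and 3.44% of all promoters. It was found in 6 of 12 that fell, 3 of 8 that rose and 8 of 15 that were not called. Oas1a stood at 4.77, 4.14, 3.47 and 4.53 scaled TPM in the shRNA CON libraries and 1.72, 1.64, 1.28 and 1.93 in those labelled shRNA RUS (log2 fold change -1.31, SE 0.15, adjusted p = 0.000219). Ifit2 stood at 28.0, 26.4, 27.2 and 24.1 scaled TPM in the shRNA CON libraries and 13.1, 10.8, 10.1 and 14.2 in those labelled shRNA RUS (log2 fold change -1.13, SE 0.11, adjusted p = 9.65e-05). Neither overlapped. Ifih1 and Ifitm3, chosen after their values were seen, had log2 fold changes of -0.64 and 0.42. Ifitm1 rose from 5.60 ± 0.457 to 8.02 ± 0.200 scaled TPM (log2 fold change 0.51, SE 0.077, adjusted p = 0.00107). Psmb10, a subunit of the immunoproteasome, rose with replicate 4 inside the controls (log2 fold change 0.52, SE 0.14, adjusted p = 0.0175).

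Sterol synthesis fell more often than it rose, in 10 of 25 genes against 3 (median -0.13; without replicate 4, 5 rose and 11 fell). Idi1, which isomerises isopentenyl diphosphate, stood at 42.8, 46.5, 43.7 and 39.8 scaled TPM in the shRNA CON libraries and 23.6, 19.4, 20.5 and 24.6 in those labelled shRNA RUS (log2 fold change -0.97, SE 0.086, adjusted p = 6.68e-05). The authors' table gives Idi1 a base mean of 220, low beside 1647 for Dhcr7 at a similar TPM, so its level is less certain. Dhcr7, the last step to cholesterol, stood at 36.5, 34.2, 37.1 and 31.8 scaled TPM in the shRNA CON libraries and 18.9, 21.5, 19.8 and 20.4 in those labelled shRNA RUS (log2 fold change -0.79, SE 0.067, adjusted p = 5.67e-05). Both were lower in all 4 libraries. The enzymes Tm7sf2 and Hsd17b7 of the middle of the pathway rose, from 23.3 ± 0.941 to 42.3 ± 5.35 scaled TPM (log2 fold change 0.85, SE 0.091, adjusted p = 0.000165) and from 18.2 ± 3.03 to 31.7 ± 4.12 scaled TPM (log2 fold change 0.80, SE 0.13, adjusted p = 0.00124). The element SRE, searched as ATCAC, 1 free base and CCAC, was in the windows of none of 17 members. It was in 0.238% of tested genes and 0.234% of all promoters. A string this rare is hardly to be met in 17 windows, so the search cannot tell whether these promoters hold an SRE. Of 20 genes of fatty acid synthesis and lipid export 3 rose and 7 fell (without replicate 4, 4 rose and 8 fell). Abca1, which loads cholesterol onto apolipoproteins, stood at 122, 103, 109.7 and 102 scaled TPM in the shRNA CON libraries and 54.8, 57.2, 52.1 and 87.6 in those labelled shRNA RUS (log2 fold change -0.82, SE 0.15, adjusted p = 0.00293), opposite to Apoe, and Acaca, the committed step of fatty acid synthesis, fell from 23.4 ± 1.23 to 16.2 ± 2.30 scaled TPM (log2 fold change -0.54, SE 0.098, adjusted p = 0.00272). Nr1h2, the sterol receptor LXR-beta, rose from 53.9 ± 6.11 to 85.3 ± 13.9 scaled TPM (log2 fold change 0.65, SE 0.12, adjusted p = 0.00356).

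Glycolysis and hypoxia genes were counted by role. Of 23 glycolysis genes 8 rose (34.8%, below the 42.9% of all genes of 100 to 300 scaled TPM) and 2 fell, with 6 and 6 after quantile normalization and 6 and 3 with TPM as deposited, and the median turned from 0.12 to -0.040 and -0.035. Of 15 hypoxia-inducible genes 2 rose and 9 fell. The median over both, 0.087, turned negative with TPM as deposited (-0.072) and quantile normalization (-0.082) (without replicate 4, 15 rose and 10 fell). Aldoc, the aldolase of the brain, stood at 1203, 1174, 1266 and 1244 scaled TPM in the shRNA CON libraries and 1700.2, 1907, 1972 and 1689.5 in those labelled shRNA RUS (log2 fold change 0.57, SE 0.068, adjusted p = 0.000302). Hk2 rose from 6.44 ± 0.538 to 9.91 ± 1.78 scaled TPM (log2 fold change 0.60, SE 0.14, adjusted p = 0.00897). Hif1a, the oxygen-regulated factor itself, stood at 35.1, 32.4, 33.3 and 31.9 scaled TPM in the shRNA CON libraries and 14.1, 13.6, 13.2 and 19.3 in those labelled shRNA RUS (log2 fold change -1.15, SE 0.11, adjusted p = 0.000113). The carbonic anhydrase Car12 fell from 6.45 ± 0.417 to 2.82 ± 0.533 scaled TPM (log2 fold change -1.18, SE 0.13, adjusted p = 0.000183). Replicate 4 was the highest of its label for both and still below the controls. The targets Egln3, Vegfa and Adm fell with log2 fold changes of -0.79, -0.59 and -0.48; they were chosen after their values were seen.

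The largest changes were taken over the genes tested, in a list or not, without 51 genes that the study discusses and 196 cell cycle genes. Only genes of at least 5 scaled TPM whose groups did not overlap were taken, so that the separation of the 8 libraries by label was part of the choice. Of the 12 largest increases, Serpinb1a was followed by Pdzph1, which went from 17.3 ± 0.972 to 53.2 ± 4.58 scaled TPM (log2 fold change 1.61, SE 0.074, adjusted p = 7.44e-06), Parm1, a mucin-like membrane protein (1.51), Fam234a (1.44), the urea transporter gene Slc14a1, from 20.8 ± 0.882 to 54.8 ± 3.34 scaled TPM (log2 fold change 1.40, SE 0.060, adjusted p = 7.44e-06), Acat3 (1.37), Tdrp (1.36), Endod1, from 23.9 ± 1.31 to 57.7 ± 0.959 scaled TPM (log2 fold change 1.27, SE 0.054, adjusted p = 7.44e-06), Elobl (1.26) and Nagpa, which uncovers the mannose 6-phosphate tag that sends enzymes to the lysosome, from 11.4 ± 0.486 to 27.1 ± 4.39 scaled TPM (log2 fold change 1.23, SE 0.11, adjusted p = 5.76e-05). The other genes of this rule, Snora20 (1.73) and Gal3st4 (1.38), have a base mean of under 10 in the authors' table and are uncertain.

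Of the 12 largest decreases, Nppc, Gmnc and Kcnj10 were described above. C1ql3, a secreted synaptic organiser, stood at 28.7, 28.9, 27.6 and 31.2 scaled TPM in the shRNA CON libraries and 8.51, 7.90, 6.97 and 8.73 in those labelled shRNA RUS (log2 fold change -1.85, SE 0.081, adjusted p = 7.44e-06). Ak4, a mitochondrial adenylate kinase that is induced by hypoxia, stood at 36.9, 37.5, 38.4 and 35.2 scaled TPM in the shRNA CON libraries and 11.2, 10.6, 9.69 and 12.7 in those labelled shRNA RUS (log2 fold change -1.74, SE 0.082, adjusted p = 7.44e-06). In both the groups were separated by a wide gap. The others were Sertm1 (-1.74), the polarity gene Epb41l5 (-1.60), the endocytic regulator Rin2 (-1.58), the matricellular gene Ccn5 (-1.55), the hypusine-bearing factor Eif5a2 (-1.54), the smooth muscle gene Cnn1, from 56.6 ± 3.89 to 19.8 ± 2.78 scaled TPM (log2 fold change -1.52, SE 0.10, adjusted p = 1.88e-05), and the GTPase regulator Stard8 (-1.51).

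**Figure D5:**
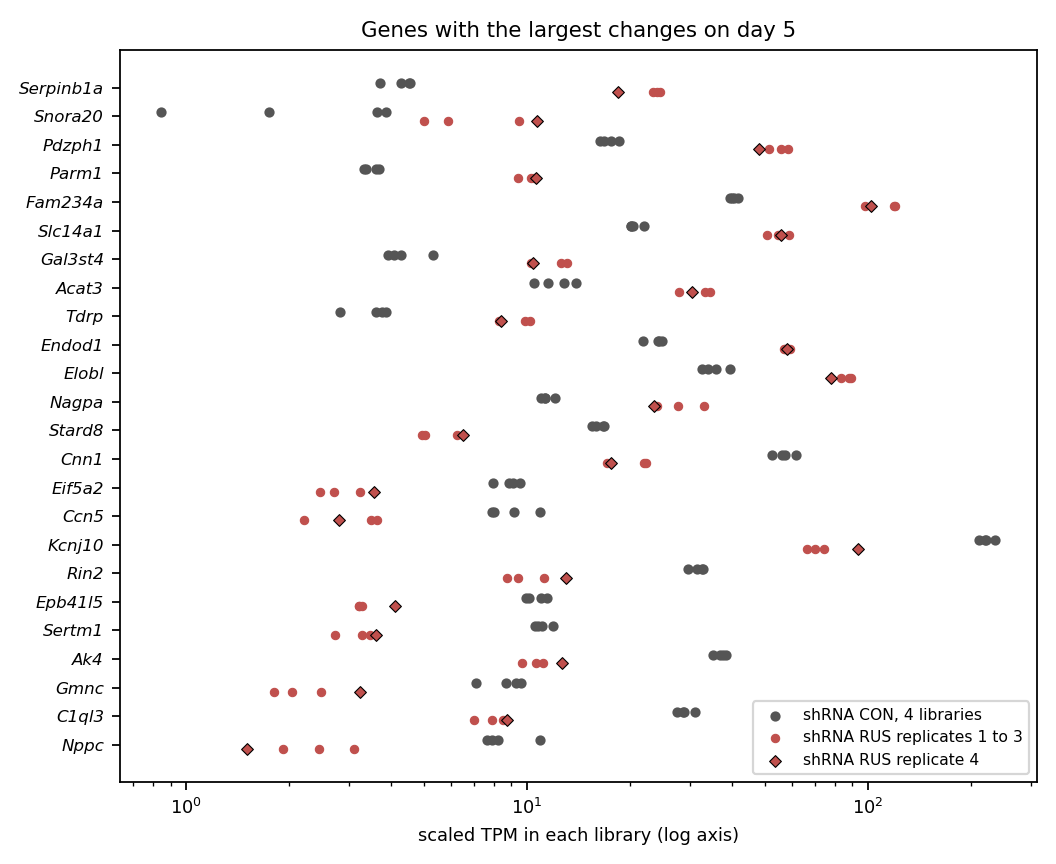
Scaled TPM (log axis) in each of the 8 libraries for the 12 genes with the largest increase and the 12 with the largest decrease by the rule for named genes (grey circles: shRNA CON; red circles: shRNA RUS replicates 1 to 3; red diamonds: shRNA RUS replicate 4). The groups of each gene do not overlap because the rule took only such genes, and the values run from Serpinb1a with 3.70 to 4.53 against 18.4 to 24.5 to Nppc with 7.61 to 10.9 against 1.51 to 3.11.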

How the data were processed

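PolyA RNA of NSC was sequenced on an Illumina NextSeq 500. According to the methods, the authors aligned reads with STAR to mm10 using a GRCm38 transcript table, quantified genes with RSEM and deposited TPM per library, which is not scaled between libraries. The deposited table also holds a base mean, a signal that the authors made as the mean over the 8 libraries of counts divided by DESeq2 size factors, and fold changes and p-values of the authors' own comparison, which were not used. Depth per library cannot be recovered from TPM. Of 55471 lines, 3 name no gene and held 0.134% to 0.386% of the TPM of a library. These were left out.

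Each library was divided by a factor, the median over 13982 genes with at least 1 TPM in all 8 libraries of its ratio to their geometric mean, giving scaled TPM. Testing used genes whose mean reached 0.1 TPM, on log2(scaled TPM + 0.1), with limma 3.58.1 (lmFit and eBayes with a trend) in R 4.3.3, with Benjamini-Hochberg adjustment over all tested genes and a two-sided threshold of 0.05. A fold change on this scale understates the change of low genes. The 48 lists hold 1538 genes. Lists and members were chosen with earlier results of these data known. Where a symbol stood on several lines, the line with the highest mean was used in lists.

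Genes were named by rule: the 12 called genes with the largest increase and the 12 with the largest decrease among those with a mean of at least 5 scaled TPM and no overlap between groups, the 2 called members with the largest increase and the 2 with the largest decrease in each list among those of at least 1 scaled TPM, and Gm20754, leaving out a list of 51 genes that the study discusses, which does not hold every gene it names, and 196 cell cycle genes. A gene was called uncertain where its base mean was under 10 beside a mean TPM of at least 1, which held for 999 of 22581 genes (4.42%). Motifs were searched on both strands of RefSeq promoters (GRCm38.p6). Single values were tested by exact permutation in Python 3.11.15 with scipy 1.17.1. The 17 alternatives changed the scaling, pseudocount, filter, trend or block, or left out 1 library. The day 7 libraries were not used here. Some results are not reported here.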

Additional observations from a re-analysis of the deposited data

Results flagged for a closer look

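In 35 of 388 groups of 4 libraries (194 named genes in 2 groups), 1 library stood so far from the other 3 that the gap, as a share of the whole range of the group, passed Dixon's critical value for 4 samples. Chance flags about 1 in 20 groups. Of the 35, 25 were in the libraries labelled shRNA RUS, and in 17 of these the library apart was replicate 4, the one with the highest level of Gm20754.

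Replicate 4 lay on the side of the controls for most of these genes. It was the lowest of its label for the lipid carrier Apoe (8197 scaled TPM against 13363 or more in the others, gap 0.949), the metallothionein Mt1 (5777 against 8945 or more, 0.941), the complex III gene Uqcr10 (464 against 656 or more, 0.929), Utp3 (0.914), Ndufs7 (0.889), Lrrtm1 (0.857), Ndn (0.853) and Psmb4 (0.847), all of which rose. For Rpl18 (0.869) and Ndufa8 (0.845), which fell, it was also the lowest and thus farthest from the controls. It was the highest of its label for Epb41l5 (0.925), Crim1 (0.888), Abca1 (0.857), Cacna1e (0.854) and Hif1a (0.843), which fell, and for Fgf2 (0.882) and Kcna2 (0.866), which rose.

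In the other libraries labelled shRNA RUS, replicate 1 was apart for Psmd6 (0.940), Hey2 (0.894), Imp4 (0.878), Hk2 (0.862), Psmd12 (0.858), Maml1 (0.850) and Nuak2 (0.834), and replicate 2 for Dlx6os1 (0.947). In the shRNA CON libraries, replicate 1 was apart for Psmd7 (0.920), Ndufa8 (0.889), Tgfb3 (0.879), Suz12 (0.859), Slc14a1 (0.857), Plxna2 (0.847) and Csf1r (0.835), replicate 2 for Lrrtm3 (0.852) and replicate 4 for Spns2 (0.900) and Sfrp5 (0.833).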

How the results depend on the processing

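Relative to 3349 genes higher and 4034 lower, the counts ranged from 2629 to 3929 higher and from 3107 to 4593 lower when 1 library was left out, and both maxima were reached without shRNA RUS replicate 4. The count of higher genes dropped to 1768 with TPM as deposited, where 6037 were lower, and to 2231 with the replicate number as a block, where 2735 were lower. The cause of the drop under the block was not tested. The numbers gave no sign of pairing. For this, the mean of its group was subtracted from each library, gene by gene. The correlation of what remained lay between -0.10 and 0.0020 for same-numbered libraries, and no library correlated best with its own number. The other scalings, pseudocounts, filters and the fit without a trend gave 2418 to 3425 higher and 3327 to 4859 lower. The difference in Gm20754 was -0.037 scaled TPM, ranged from -0.10 to 0.0049 when 1 library was left out, and turned positive (0.0049) without shRNA RUS replicate 2. Of 193 called genes named by the rule, 158 kept their call under all alternatives in which they were tested and none changed direction. The block ended the most calls (28), followed by leaving out shRNA CON replicate 3 (18) and shRNA RUS replicate 3 (16). TPM as deposited ended 15, quantile normalization 13 and leaving out shRNA RUS replicate 4 ended 4. The medians of 14 of 48 gene lists changed sign under at least 1 alternative. For cytokine genes the median of 0.026 became -0.13 with TPM as deposited, and for presynaptic genes -0.082 became 0.020 after quantile normalization. Those of radial glia, cortical projection neuron, endothelial, mural and fibroblast, and mitochondrial genome genes also turned. TPM carries no count, so the depth behind a low value is unknown.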
